A study of Mus musculus with 4 samples.

Results

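Xenobiotic P450 genes of families Cyp2 and Cyp3a encode liver enzymes best known for oxidising drugs, steroids and other foreign or fat-soluble compounds. The genes described here are Cyp3a11 (gene ID 13112), Cyp3a59 (100041449), Cyp2b9 (13094), Cyp2b10 (13088), Cyp2a4 (13086), Cyp2a5 (13087) and Cyp2c55 (72082). These 7 genes are among 943 distinct genes in 2 deposited tables, which hold only genes that differed between the genotypes in the fasted or in the refed state. Of these, 6 stand in the fasted table of 722 genes, 4 in the refed table of 284 genes, and 3 in both. The genes were selected on their higher level in the cytochrome b5-targeted libraries, so their higher level there is a description and not a finding.

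The targeted livers are labelled L_Cyb5b_shCyb5a, which the series' design text spells out as liver Cyb5b with shCyb5a, and the controls are labelled WT_shNC. Each genotype has 1 fasted and 1 refed library of total liver RNA, and the labels give no shared allele or agent beyond these names. The allele, the hairpin vector, the sex, strain and age of the mice, any pooling and how long the mice fasted or were refed are not stated in the sources used here. The 4 libraries have an estimated depth of 13300000 to 13500000 reads. Every difference below compares 1 library with 1 library, has no replicate check and carries no p-value. Folds are ratios of TPM (a level scaled for transcript length and library size). The range in parentheses after a fold comes from the 95% Clopper-Pearson interval of the ratio of the reads behind it. That interval was multiplied by the TPM ratio over the read ratio, which places it around the TPM fold. The range covers counting error only, and the ratio of the printed reads can lie outside it. Cyb5a stood at 207.3 TPM in targeted and 1686 TPM in control fasted liver, and at 166.1 TPM in targeted and 1274 TPM in control refed liver. Cyb5b stood at 27.4 against 72.4 TPM in the fasted and at 49.5 against 173.7 TPM in the refed pair, targeted before control, so both targeted transcripts were lower in the libraries labelled as targeted. None of the 10 hepatocyte markers chosen for a check of the tissue is in either table. The tables hold only genes that differed between the genotypes, so this absence says nothing about the tissue. The abundant liver transcripts Mup7 and Serpina1e stood at 5444 and 501 TPM or more in every library, though both were lower in targeted than in control fasted liver.

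Microsomal P450 enzymes oxidise their substrates with electrons passed on by P450 oxidoreductase, and cytochrome b5 can supply an electron to some of them. In rodent liver the transcription of Cyp2b, Cyp2c and Cyp3a genes is raised by the nuclear receptors CAR (Nr1i3) and PXR (Nr1i2), which respond to drugs, bile acids and steroids. Several Cyp2a and Cyp2b genes are also set by the sex-specific rhythm of growth hormone, with higher levels in female mice. Many of these genes are recent duplicates that lie in clusters, so that a short read can match more than 1 of them.

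Because the copies decide how far a value can be trusted, the sequences of the closest pair come first. Cyp2a4, a steroid hydroxylase, and Cyp2a5, a coumarin hydroxylase that also oxidises nicotine, have coding sequences of 1482 bases in GENCODE M21 that differ at 23 bases and are 98.4% identical. Their longest identical stretch is 216 bases. The window of 60 coding bases from 596 to 655, counted from the A of the start codon, holds 4 of these differences, shown in capitals.
Cyp2a4: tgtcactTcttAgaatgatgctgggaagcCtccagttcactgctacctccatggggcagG
Cyp2a5: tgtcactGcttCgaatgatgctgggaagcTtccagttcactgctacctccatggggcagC
The difference C625T, with the Cyp2a4 base first, lies in codon 209, which is known from earlier work on these enzymes to set whether the substrate is a steroid or coumarin. The 250 bases upstream of the start of each gene, from RefSeq on build GRCm38.p6, were also nearly the same, with 4 differing bases and 1 overhanging base at an end of each window, all in capitals. The Cyp2a4 window is chr7:26306942-26307191 and the Cyp2a5 window is chr7:26835089-26835338, both on the plus strand.
Cyp2a4: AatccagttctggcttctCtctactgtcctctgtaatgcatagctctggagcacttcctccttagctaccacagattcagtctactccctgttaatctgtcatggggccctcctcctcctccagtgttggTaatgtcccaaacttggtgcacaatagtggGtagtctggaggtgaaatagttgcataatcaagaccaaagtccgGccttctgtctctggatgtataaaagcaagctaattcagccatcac
Cyp2a5: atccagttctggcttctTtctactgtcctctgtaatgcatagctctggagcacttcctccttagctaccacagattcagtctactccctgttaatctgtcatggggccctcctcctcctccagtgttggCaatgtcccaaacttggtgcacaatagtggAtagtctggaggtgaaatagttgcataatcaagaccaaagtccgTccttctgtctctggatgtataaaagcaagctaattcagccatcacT
Over the alignment the 2 upstream windows were 97.6% identical, yet the levels of the genes differed widely in every library, as described below.

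The upstream windows of the other pairs are shown because both genes of each pair were higher in targeted fasted liver while their windows differ. The Cyp2b9 window (chr7:26173159-26173408) and the Cyp2b10 window (chr7:25897408-25897657), both on the plus strand, were 68.1% identical. Capitals mark, on either strand, the half-sites AGGTCA and AGTTCA, letters that nuclear receptors of the CAR and PXR kind can bind in pairs, and TTGCNNAA, letters of the kind bound by C/EBP proteins.
Cyp2b9: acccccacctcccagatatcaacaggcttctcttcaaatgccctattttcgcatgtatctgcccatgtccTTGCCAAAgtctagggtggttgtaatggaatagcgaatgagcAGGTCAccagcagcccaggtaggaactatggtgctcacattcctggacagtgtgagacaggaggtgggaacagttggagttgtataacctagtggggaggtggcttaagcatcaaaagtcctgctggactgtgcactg
Cyp2b10: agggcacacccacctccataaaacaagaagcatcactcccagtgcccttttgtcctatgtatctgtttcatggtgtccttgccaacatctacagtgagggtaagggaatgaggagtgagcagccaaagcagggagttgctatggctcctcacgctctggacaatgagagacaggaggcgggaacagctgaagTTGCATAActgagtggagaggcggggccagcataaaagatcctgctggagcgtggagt
The windows of Cyp3a11 (chr5:145879855-145880104, minus strand) and Cyp3a59 (chr5:146079008-146079257, plus strand) were 48.7% identical and carry the same marks.
Cyp3a11: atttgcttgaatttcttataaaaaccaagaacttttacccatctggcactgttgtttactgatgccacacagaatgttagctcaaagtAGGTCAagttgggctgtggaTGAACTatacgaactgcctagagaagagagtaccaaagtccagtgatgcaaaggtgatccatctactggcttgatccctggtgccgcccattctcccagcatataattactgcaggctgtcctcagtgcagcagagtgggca
Cyp3a59: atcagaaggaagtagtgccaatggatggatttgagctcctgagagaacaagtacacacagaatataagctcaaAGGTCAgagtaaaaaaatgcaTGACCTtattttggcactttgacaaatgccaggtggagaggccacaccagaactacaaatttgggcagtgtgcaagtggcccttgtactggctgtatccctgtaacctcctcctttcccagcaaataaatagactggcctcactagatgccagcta
AGGTCA begins 162 bases upstream in Cyp3a11, 138 bases upstream in Cyp2b9 and, once on each strand, 177 and 156 bases upstream in Cyp3a59. Of 32851 mouse promoter windows of 250 bases in the same table, 14% hold it. AGTTCA begins 142 bases upstream in Cyp3a11 and is held by 11.8% of all windows. TTGCNNAA begins 180 bases upstream in Cyp2b9, 58 in Cyp2b10, 70 in Cyp2a4 and 71 in Cyp2a5, and is held by 9.56% of all windows. The Cyp2c55 window held none of the 3 motifs. No motif overlapped another, and a match of these letters is a description and not a binding site. The known phenobarbital-responsive enhancer of Cyp2b10 lies farther upstream than these windows.

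The 7 genes spanned a wide range of levels, with Cyp3a11 highest, Cyp2a5 next and then Cyp3a59 in each of the 4 libraries. Summed, they stood at 5748 TPM in targeted and 1628 TPM in control fasted liver, and at 1657 TPM in targeted and 548.2 TPM in control refed liver. Cyp3a11 alone made up 87.6% of this sum in targeted and 70.8% in control fasted liver, and 82.8% in each refed library. Below the top 3 the order changed with the library. In targeted fasted liver it ran Cyp2b9, Cyp2a4, Cyp2b10 and Cyp2c55, in control fasted liver Cyp2c55, Cyp2b10, Cyp2a4 and Cyp2b9, in targeted refed liver Cyp2c55, Cyp2a4, Cyp2b9 and Cyp2b10, and in control refed liver Cyp2c55, Cyp2b9, Cyp2a4 and Cyp2b10. Cyp2b9 was thus the fourth in targeted and the last in control fasted liver. The lowest neighbours rested on few reads and were not separated beyond counting error, with 5.26 reads for Cyp2a4 and 3 for Cyp2b9 in control fasted liver and 2 for Cyp2b9 and 1.03 for Cyp2a4 in control refed liver.

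**Figure D1:**
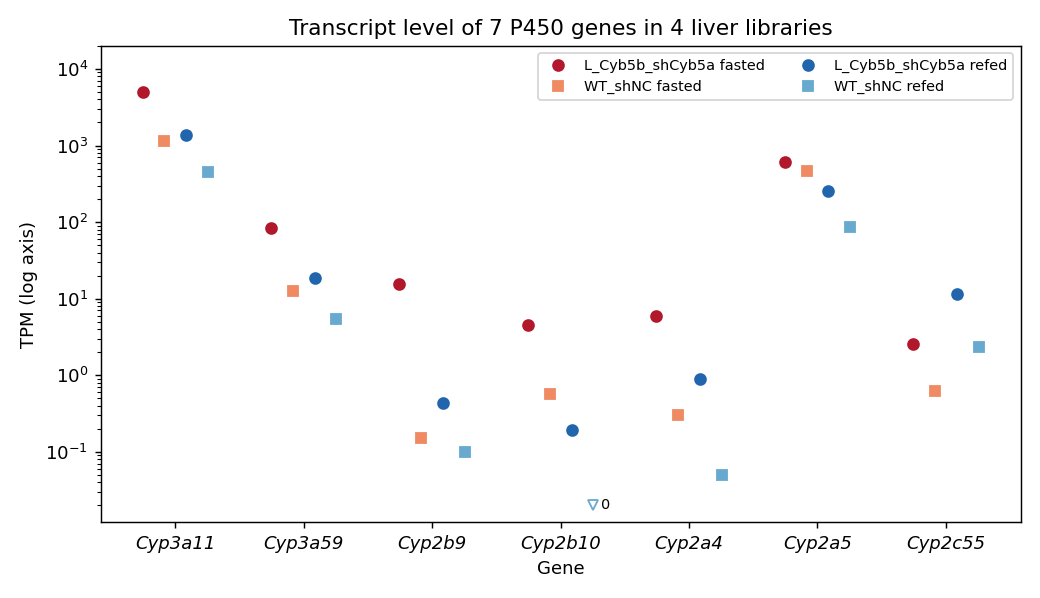
Level of each of the 7 genes in TPM, on a log axis, in the 4 libraries, 1 point per library; the open triangle marks Cyp2b10, listed at 0 in control refed liver. Circles (L_Cyb5b_shCyb5a) lie above squares (WT_shNC) of the same feeding state for every gene, and Cyp2c55 is the gene whose refed points lie above its fasted points.

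Cyp3a11, the main drug-metabolising Cyp3a enzyme of mouse liver, stood at 5037 TPM in targeted and 1152 TPM in control fasted liver, on 95487 and 24813 reads. In the refed state it stood at 1373 TPM in targeted and 454.1 TPM in control liver, on 31798 and 10550 reads. Its level in targeted refed liver was therefore above that in control fasted liver, and control refed liver was the lowest of the 4. Cyp3a11 was 4.37-fold higher in targeted fasted liver (4.31 to 4.43) and 3.02-fold higher in targeted refed liver (2.96 to 3.09). Counting error was smallest for this gene, which holds 14.8% of windows of 50 bases, and 0.312% of windows of 100 bases, in common with another gene's transcript in GENCODE M21.

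Cyp3a59, a lower-level Cyp3a gene of the same cluster, stood at 82.5 TPM in targeted and 12.6 TPM in control fasted liver and at 18.4 TPM in targeted and 5.34 TPM in control refed liver. Its order over the 4 libraries was that of Cyp3a11. It was 6.57-fold higher in targeted fasted (5.93 to 7.29) and 3.45-fold higher in targeted refed liver (2.95 to 4.05). The reads behind these values came out fractional, at 2299.94 and 443.99 in the fasted and 683.73 and 208.03 in the refed pair, targeted before control, which whole reads counted once could not give. Cyp3a25, a neighbouring gene that is not among the 7, shares 24.7% of the 50-base windows of Cyp3a59. With TPM of Cyp3a59 and Cyp3a25 summed, a choice made after seeing the data, the log2 ratio of targeted over control was 1.83 in place of 2.72 in the fasted and 1.40 in place of 1.79 in the refed state. The coding sequences of Cyp3a11 and Cyp3a59 are 75.5% identical, with 20 bases as the longest identical stretch, so Cyp3a59 is not a near copy of Cyp3a11.

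Cyp2b9 and Cyp2b10 encode enzymes of the Cyp2b subfamily, known for its induction by phenobarbital, and Cyp2b9 is known for its higher level in female than in male mouse liver. Cyp2b9 stood at 15.4 TPM on 264 reads in targeted fasted liver and at 0.15 TPM on 3 reads in control fasted liver. In the refed pair it stood at 0.43 TPM on an estimated 9 reads in targeted and at 0.1 TPM on 2 reads in control liver. Targeted fasted liver was thus the 1 library of the 4 in which Cyp2b9 was above 1 TPM. The fold was 103 (34.7 to 501) in the fasted and 4.3 (0.89 to 40.9) in the refed pair, and the second range includes equal levels.

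Cyp2b10, the classical target gene of CAR in mouse liver, stood at 4.51 TPM on 77 reads in targeted and 0.57 TPM on 11 reads in control fasted liver. In the refed pair it stood at 0.19 TPM on an estimated 4 reads in targeted liver and was listed at 0 in control liver. It followed Cyp2b9 in being highest in targeted fasted liver and near 0 in both refed libraries. The fasted fold was 7.91 (4.18 to 16.5). In the refed pair, the lower 95% limit of the ratio of an estimated 4 reads to 0 was 0.66-fold, so equal levels are within counting error. Cyp2b9 made up 77.4% of the reads of the pair in targeted and 21.4% in control fasted liver, the latter on 3 reads of Cyp2b9 and 11 of Cyp2b10. In refed liver Cyp2b9 made up 70.1% in targeted and 100% in control liver, the latter on 2 reads. The lower share in control fasted liver thus rests on few reads. The coding sequences of the 2 genes are 87.8% identical, with a longest identical stretch of 55 bases. All recovered reads of both genes were whole, and with TPM summed the pair was 27.7-fold higher in targeted fasted liver and 6.2-fold higher in targeted refed liver. Cyp2b13, in neither table and not analysed here, shares 10.8% of the 50-base windows of Cyp2b9 and 7.82% of those of Cyp2b10.

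Cyp2a4 stood at 5.98 TPM in targeted and 0.3 TPM in control fasted liver and at 0.9 TPM in targeted and 0.05 TPM in control refed liver. These levels rest on 91.63, 5.26, an estimated 17 and 1.03 reads, in that order. Targeted fasted liver was again the highest and control refed liver the lowest. The fold was 19.9 (8.24 to 62.9) in the fasted and 18 (2.82 to 752) in the refed pair. Cyp2a5 was far more abundant, at 600.3 TPM in targeted and 461.7 TPM in control fasted liver and at 253.4 TPM in targeted and 86.3 TPM in control refed liver. Cyp2a5 had the same highest and lowest library as Cyp2a4. Cyp2a5 was 1.3-fold higher in targeted fasted liver (1.26 to 1.34), where it is not in the deposited table, and 2.94-fold higher in targeted refed liver (2.78 to 3.11). The fasted ratio of Cyp2a5 depends on the scale, with a log2 ratio of 0.38 from TPM and 0.17 from FPKM.

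Cyp2a4 made up 0.988% of the reads of the Cyp2a pair in targeted and 0.0655% in control fasted liver, and 0.355% in targeted and 0.0636% in control refed liver. The Cyp2a4 share was thus under 1% in every library and differed between libraries. The reads of Cyp2a4 came out fractional, and 38% of the 50-base windows of Cyp2a4 and 40.8% of those of Cyp2a5 occur in another gene, for the most part in each other. At 150 bases 4.22% and 5.79% of windows remain shared. With TPM of the pair summed, the fold was 1.31 in the fasted and 2.95 in the refed state, close to that of Cyp2a5 alone, because Cyp2a5 supplies almost all the reads. The value of Cyp2a4 by itself is therefore uncertain. The coding sequences of Cyp2a genes, unlike those of Cyp2c55, leave many positions at which a read cannot be assigned to 1 gene, and the sources used here state no read length.

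**Figure D2:**
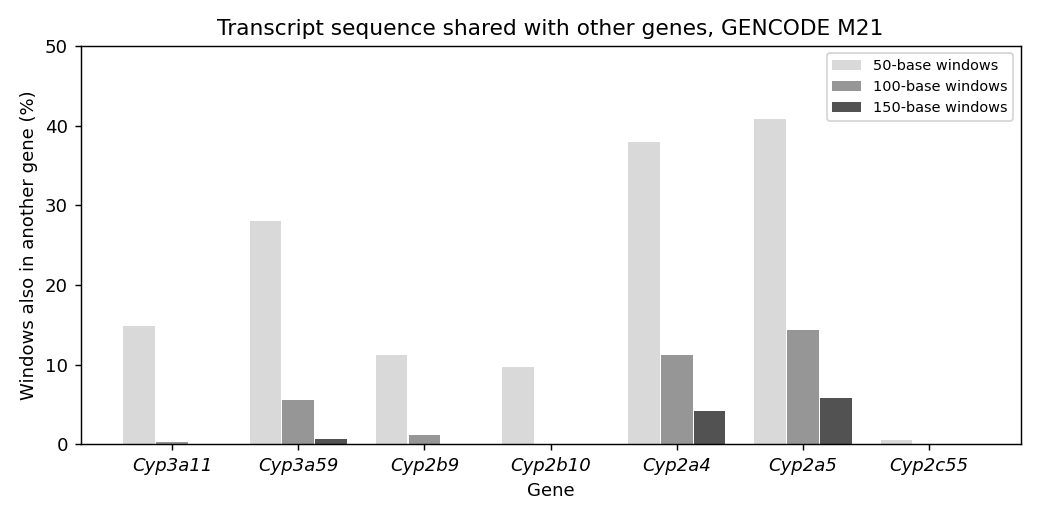
Percent of all windows of 50, 100 and 150 bases along 1 GENCODE M21 transcript of each gene that also occur in a transcript of another gene. Cyp2a5 and Cyp2a4 share most, at 40.8% and 38% of 50-base windows, and Cyp2c55 least, at 0.514%.

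Cyp2c55, a Cyp2c enzyme that oxidises fatty acids and is best known from mouse colon and from induced liver, was the one gene of the 7 at a higher level in refed than in fasted liver in both genotypes. It stood at 2.58 TPM on 47 reads in targeted and 0.63 TPM on 13 reads in control fasted liver. It stood at 11.3 TPM on 253 reads in targeted and 2.32 TPM on 52 reads in control refed liver. Both refed libraries were above the fasted library of the same genotype, and targeted fasted and control refed liver were close, with 47 and 52 reads. The fold was 4.1 (2.18 to 8.25) in the fasted and 4.88 (3.61 to 6.72) in the refed pair.

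Of the 6 genes in the fasted table, 6 were at least 2-fold higher in targeted liver, against 29.6% of all 722 genes in that table. Of the 4 in the refed table, 4 were at least 2-fold higher, against 75.7% of all 284 genes. The genes were selected on these contrasts, so nothing is read from either count. The median log2 ratio was 2.85 over the 6 and -0.96 over 711 genes of the fasted table with a ratio, and 1.69 over the 4 and 1.19 over 271 genes of the refed table. The genes nearest the smallest log2 ratio of 1 that either table holds were Cyp2c55, at 1.85 in the fasted table, and Cyp2a5, at 1.55 in the refed table, both as given in the authors' deposited table. Of the genes outside a table, Cyp2a5 had a log2 TPM ratio of 0.38 when fasted, while when refed Cyp2b9 had 2.10 and Cyp2a4 4.17, on an estimated 9 and 17 targeted reads. TPM over FPKM is a different constant in each library. From these constants a log2 TPM ratio is 0.21 above the log2 FPKM ratio in the fasted and 0.03 above it in the refed state, and genes at low levels depart from this because values have 2 decimals. The same shift is -0.27 for refed over fasted in targeted and -0.09 in control liver.

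**Figure D3:**
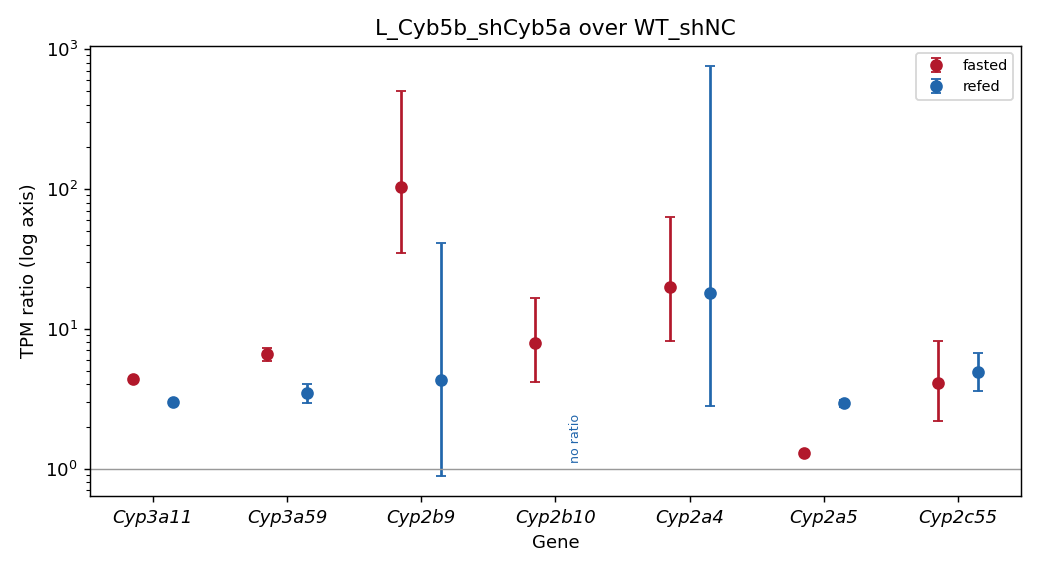
Ratio of TPM in L_Cyb5b_shCyb5a over WT_shNC liver for each gene, on a log axis, in the fasted and refed pair; bars are 95% counting intervals and the line marks equal levels. The refed interval of Cyp2b9 crosses the line, and Cyp2b10 has no refed ratio because it is listed at 0 in control refed liver.

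The size of the genotype ratio was not the same in both feeding states for 3 genes, as far as counting error goes. The refed minus fasted difference of the log2 ratio of targeted over control was -0.53 for Cyp3a11, -0.93 for Cyp3a59 and 1.18 for Cyp2a5, and for these the counting intervals of the 2 ratios did not overlap. Cyp2a5 had the larger ratio in refed liver, unlike the Cyp3a genes. It was selected through the refed table only and is not in the fasted table. The sign of its difference was therefore set by the selection, and nothing is read from it. For Cyp2b9 the difference was -4.58, for Cyp2a4 -0.15 and for Cyp2c55 0.25, with overlapping intervals. From FPKM the difference was -0.35 for Cyp3a11, -0.75 for Cyp3a59 and 1.36 for Cyp2a5, so these sizes depend on the scale while the signs are kept. The sign for Cyp2a4 turns with the scale, to 0.06 from FPKM. No difference between states could be tested, because each group has 1 library.

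Within each genotype, levels of most of the genes were lower in refed than in fasted liver. In targeted liver Cyp3a11 was 3.67-fold lower refed than fasted (3.62 to 3.72), and in control liver it was 2.54-fold lower (2.48 to 2.6). Cyp3a59 was 4.48-fold lower (4.11 to 4.88) in targeted and 2.35-fold lower (1.99 to 2.79) in control liver. For both Cyp3a genes the factor was larger in targeted liver. Cyp2a5 was 2.37-fold lower (2.29 to 2.45) in targeted and 5.35-fold lower (5.07 to 5.65) in control liver, the opposite order. These orders restate the differences of the genotype ratios between feeding states given above, because the same levels enter both. They are not a separate result, and the selection limit given there for Cyp2a5 holds here too. For the low genes the targeted libraries carry the reads. Cyp2b9 was 35.8-fold lower (18.6 to 79.2) in targeted liver, and in control liver, at 2 refed against 3 fasted reads, 1.5-fold lower (0.172 to 18), a range that includes equal levels. Cyp2b10 was 23.7-fold lower (8.9 to 89.3) in targeted liver, and in control liver, with 0 refed against 11 fasted reads, it was lower by at least 2.51-fold as the 95% counting limit of the reads. Cyp2a4 was 6.64-fold lower (3.93 to 11.9) in targeted and 6-fold lower (0.671 to 284) in control liver, and the second range includes equal levels. Cyp2c55 was instead higher refed than fasted, 4.39-fold (3.21 to 6.13) in targeted and 3.68-fold (1.98 to 7.37) in control liver.

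Over the 6 genes of the fasted table, the median log2 ratio of refed over fasted in targeted liver was -2.45, against 0.23 over 715 genes of that table with a ratio. Of these 6, 5 were lower refed, against 39.9% of the genes with a ratio. In control liver 4 of 5 with a ratio were lower refed, against 73.9% of 710 genes. The targeted fasted library, on whose high levels the genes were selected, is also the fasted side of the refeeding ratio in targeted liver. The control libraries are the other side of the ratios used for the selection. The counts for neither genotype can therefore be read apart from that selection.

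**Figure D4:**
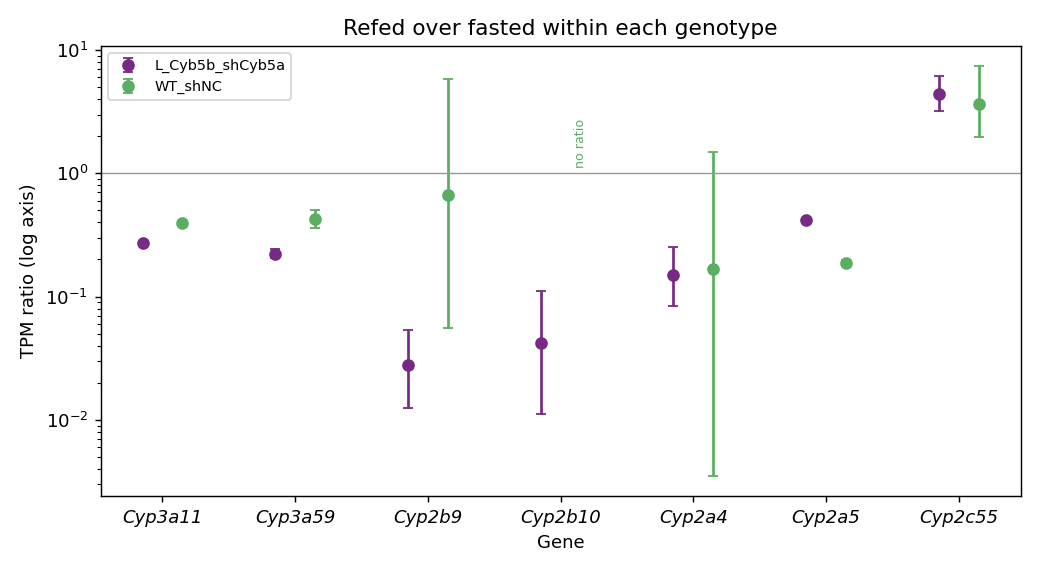
Ratio of TPM in refed over fasted liver for each gene within L_Cyb5b_shCyb5a and within WT_shNC, on a log axis; bars are 95% counting intervals and the line marks equal levels. Cyp2c55 lies above the line in both genotypes, at 4.39 and 3.68, and Cyp2b10 has no ratio in WT_shNC liver because it is listed at 0 there when refed.

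The 7 genes come from 3 clusters of P450 genes in the RefSeq gene order. Genes were counted between chosen end genes, Cyp2b10 to Cyp2a12, Cyp3a57 to Cyp3a59 and Cyp2c55 to Cyp2c70, and a cluster may extend beyond them. The stretch on chromosome 7 holds 10 coding P450 genes, of which 5 are in either table. Their order is Cyp2b10, Cyp2b9, Cyp2a4, Cyp2a5 and Cyp2a22, with genes outside the tables between them. Cyp2a22, the one of these 5 that is not among the 7, stood at 9.22 TPM in targeted and 2.75 TPM in control fasted liver. The Cyp3a stretch on chromosome 5 holds 8, of which Cyp3a11, Cyp3a25 and Cyp3a59 lie next to each other and are the 3 in both tables. Cyp3a25, another Cyp3a enzyme of adult liver, stood at 1215 against 351.1 TPM in the fasted and 366.5 against 140.9 TPM in the refed pair, targeted before control, in the same order over the libraries as both its neighbours. The Cyp2c stretch on chromosome 19 holds 14 coding P450 genes, with 5 in the fasted table and 2 in the other. Cyp2c29 stood at 1108 against 363.4 TPM in the fasted and 950.5 against 391.7 TPM in the refed pair, so its 2 targeted libraries stood close to each other, as did its 2 control libraries. Genes of the clusters that are in neither table were not analysed here.

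Among 606 other genes of the tables at 1 TPM or more in all 4 libraries, 5 lay closest to the mean log2 profile of the 6 genes above 0 in all libraries, by Euclidean distance over the 4 libraries after centring. Abcc3, an export pump for conjugates, and Zbed6, a transcription factor gene derived from a transposon, were each at a distance of 1.06. Cyp3a25 was at 1.08, Odf3b at 1.17 and Cyp7a1, whose enzyme sets the rate at which bile acids are made, at 1.29. The 6 genes themselves lay 0.47 (Cyp3a59) to 3.52 (Cyp2c55) from that mean, so the nearest outside genes were closer to it than 4 of the 6 were. The floor of 1 TPM was not applied to the 6 genes. In control refed liver Cyp2b9 rests on 2 and Cyp2a4 on 1.03 reads, so the mean and the distances carry their counting error. All of these genes are in the tables because they differed between the genotypes, and the distance is a description over 4 libraries.

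Other genes of the pathway were counted from lists of known members. Of 13 genes of families Cyp1 to Cyp3 in the fasted table, 12 were higher in targeted liver, the 6 above among them, and Cyp1b1, which oxidises polycyclic compounds outside hepatocytes, was lower at 0.4 TPM against 1.26 TPM in control fasted liver. All 6 such genes in the refed table were higher, 4 of them among the 7, whose direction the selection fixed. By the authors' log2 ratio, 30.3% of all genes in the fasted table were higher and 69.7% lower in targeted liver, and of all refed genes listed 78.2% were higher and 21.8% lower. The counts of this and the following lists stand beside those shares. P450 genes of other families, which mostly act on sterols, bile acids and fatty acids, gave 3 higher and 4 lower of 7 in the fasted table and 4 higher and 1 lower of 5 in the refed table. Among them Cyp8b1, a sterol hydroxylase that helps make bile acids, stood at 527 TPM in targeted and 176.9 TPM in control fasted liver. Its refed levels were 260.2 and 261.6 TPM, targeted before control. Cyp7b1 was lower, at 46.1 TPM in targeted and 111.9 TPM in control fasted liver. Cyp4a14, a fatty acid hydroxylase, stood at 36.03 TPM in targeted and 9.84 TPM in control refed liver. The fasted levels of Cyp4a14 were 4604 and 3674 TPM, targeted before control. Of 51 known CAR and PXR targets other than the 7, 12 are in the fasted table and 12 were higher in targeted liver. Several of these 12, Cyp3a25, Cyp2c29 and Cyp2c50 among them, were already counted in families Cyp1 to Cyp3. Gstm3, Ugt1a9 and Gstt3 are counted again among the conjugating genes below. The lists overlap among refed genes too, so the counts of different lists are not separate results. Among refed genes 13 of the targets are listed, of which 12 were higher and 1, Alas1, the first enzyme of haem synthesis, was lower at 17.1 TPM against 44.0 TPM in control liver. The epoxide hydrolase gene Ephx1 stood at 495.5 against 207.1 TPM in the fasted and 310.4 against 94.1 TPM in the refed pair, targeted before control.

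Genes that conjugate P450 products to glutathione, sugar acid or sulphate gave 3 higher and 1 lower of 4 listed in the fasted table and 9 higher of 9 in the refed table, where 78.2% of all genes were higher. Gstm3, a glutathione transferase, stood at 267.1 against 49.9 TPM in the fasted and 342.0 against 55.5 TPM in the refed pair, targeted before control. Of 10 genes for electron donors of P450 enzymes, Cyb5a and Cyb5b are listed, both lower, and P450 oxidoreductase (Por) is in neither table. None of 14 receptor genes and partners, Nr1i2 and Nr1i3 among them, is in either table, so their levels were not analysed here. Of 7 targets of the aryl hydrocarbon receptor, which senses dioxin-like compounds, 2 are in the fasted table, with Cyp1b1 lower, as given above, and Nqo1 higher. Nqo1 is in both tables, at 7.14 against 2.92 TPM fasted and 5.49 against 2.47 TPM refed, targeted before control.

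Of the 7 genes, 3 (Cyp2b9, Cyp2b10 and Cyp2a4) belong to a list of 24 genes known for higher levels in female liver. The fasted table holds 6 of that list. These 3 genes were selected for being higher in targeted liver, and the other 3 listed were also higher, against 30.3% of all genes in the table. Among them were Hamp2, a hepcidin gene, at 233 TPM against 47.7 TPM, and Cyp17a1, a steroid hydroxylase, at 60.01 TPM against 22.9 TPM in control liver. In the refed pair Hamp2 stood at 129.4 against 103.5 TPM, while Cyp17a1 was lower in targeted liver, at 4.96 against 6.07 TPM, targeted before control. Of 23 genes known for higher levels in male liver, 9 are in the fasted table and 9 were lower in targeted liver, against 69.7% of all genes in the table, among them the urinary protein gene Mup7 at 5444 TPM against 22544 TPM. Among refed genes 1 female-biased gene, Abcd2, was higher and 1 male-biased gene, Moxd1, was lower. The sources used here do not state the sex of the mice, and the part of sex in the levels of Cyp2b9, Cyp2b10 and Cyp2a4 was not tested.

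Cyp2a5 and Cyp2c55 belong to a list of 16 genes of pericentral hepatocytes, the zone around the central vein where many P450 enzymes are made. Each table holds 3 of that list. Cyp2c55 in the fasted table and both genes in the refed table were selected for being higher in targeted liver. The others listed, Gstm3 in both tables and Lgr5 in the fasted one, were also higher. Lgr5 was at a low level, with 1.2 against 0.41 TPM in the fasted pair. It was not higher in the refed pair, with 1.7 against 1.77 TPM, targeted before control. Of 13 genes of periportal hepatocytes, 2 are in the fasted table, Igfbp1 and Sds. Both were lower in targeted fasted liver, at 820.8 against 1559 TPM and 220.8 against 383.5 TPM, as were 69.7% of all genes in the table. In the refed pair neither was lower, with Igfbp1 at 173.9 against 173.1 TPM and Sds at 78.2 against 66.6 TPM, targeted before control. The part of liver zonation in the P450 levels was not tested. In bulk liver, fewer cells of a type and less RNA per cell cannot be told apart.

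Some markers of other liver cells are in the tables. Of 58 markers of endothelium, macrophages, lymphocytes, stellate cells, bile ducts, neutrophils and blood, 23 are in the fasted table and 35 are not. The 23 were lower in targeted liver, against 69.7% of all genes in the table, with summed levels of 269.7 TPM in targeted and 568.9 TPM in control fasted liver and 367.6 TPM in targeted and 258.3 TPM in control refed liver. None of the 23 is at 0 in any library, and no bile duct marker of 6 is listed. The refed table lists 2 of the 58, Lyve1 and Marco, and both were higher in targeted liver, summed at 18.84 TPM in targeted and 6.95 TPM in control refed liver. None of 6 markers of small intestine and other P450-bearing tissue is in either table, so their levels were not analysed here. The part of other cell types in the P450 levels was not tested.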

How the data were processed

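Total RNA of mouse liver, isolated with TRIzol per the labels, was sequenced in 4 libraries, 1 per genotype and feeding state. The deposited first sheets give TPM, FPKM, the log2 ratio of targeted over control and a p-value made by the authors, per the file headers. TPM and FPKM have 2 decimals. The sources used here state neither library preparation, strand, aligner and annotation nor the build. A shorter second sheet of each table was not used. Each table holds only genes at an absolute log2 ratio of 1 or more, with p-values of at most 0.000243 (fasted) and 0.000146 (refed).

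Each p-value sets 1 library against 1 and says nothing about mice, so p-values served only to recover reads. A doubled Audic-Claverie tail on reads in steps of 0.01 gave the p-value within a relative tolerance of 0.001 in 695 of 697 fasted (99.71%) and 263 of 263 refed genes (100%), and the reads were whole in 83.36% and 77.57% of genes. Where the p-value is below the numerical limit, reads of Cyp3a11 in both tables and of Cyp2a5 in the refed table are the smallest that give the log2 ratios, and the steps of 0.01 assumed for Cyp2a5 could not be checked by its p-value. Reads of Cyp2b9, Cyp2b10 and Cyp2a4 in targeted refed liver and of Cyp2a5 in both fasted libraries were estimated from FPKM. The recovery step was tested on simulated data. Intervals cover counting error only. Depth was estimated from genes with 1 transcript in GENCODE M21 and is approximate.

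TPM ratios were compared with ratios of FPKM, of TPM with a pseudocount of 1 TPM, of genes at 1 TPM or more only, of summed copies, and with the authors' log2 ratio. No test was possible with 1 library per group. The 7 genes and all gene lists were chosen with earlier results of these data known. Of each list, up to 4 genes per table with the highest TPM were eligible to be named; Cyp1b1, Cyp2a22 and Alas1 were named after their values were seen. Scripts used Python 3.11.15, pandas 2.3.3, SciPy 1.17.1, Biopython 1.88 and matplotlib 3.10.9. Upstream sequences were matched by symbol in a RefSeq table for 7 of 7 genes.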

Additional observations from a re-analysis of the deposited data

How the results depend on the processing

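No paired analysis was possible because each group has 1 library and no test was run. The direction of targeted over control held for every gene with a ratio in both states from FPKM and with a pseudocount of 1 TPM. Of the 6 genes at least 2-fold higher in the fasted table, 2 (Cyp3a11 and Cyp3a59) were left when only genes at 1 TPM or more in both libraries were kept. With copies summed the genes merged into 4 units, of which 3 were at least 2-fold higher. The Cyp2a pair, at a log2 ratio of 0.39, was not, because Cyp2a5, which is not in the fasted table, supplies almost all its reads. Cyp3a11 and Cyp3a59 were summed although they are not near copies, so this count is not a check of the copies alone. The median log2 ratio ranged over 2.08 to 2.85 in the fasted and 1.60 to 1.69 in the refed table under the 5 alternatives and the reported setting. The value of 2.08 comes from the summed copies. The difference between feeding states for Cyp2a4 turned from -0.15 to 0.06 with FPKM. With a pseudocount of 1 TPM, the fasted log2 ratio was 3.83 in place of 6.68 for Cyp2b9 and 1.81 in place of 2.98 for Cyp2b10. It was 2.42 in place of 4.32 for Cyp2a4 and, within the counting interval, 1.14 in place of 2.03 for Cyp2c55. The size of these folds therefore rests on control levels below 1 TPM. With FPKM, 10 of the values for single genes moved by more than their counting interval and 1 turned sign, and 21 did not. The authors' fasted log2 ratio lay outside the counting interval for Cyp3a11, at 1.94 in place of 2.13. It also did for Cyp3a59, at 2.37 in place of 2.72, and 8 other authors' ratios lay inside. Low reads limit Cyp2b9, Cyp2b10 and Cyp2a4 in all libraries but targeted fasted liver, and Cyp2c55, at 13 reads, in control fasted liver.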
